A study of Mus musculus with 8 samples.

Results

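Neuropeptides are small signaling proteins that neurons cut from larger precursors, pack into dense-core vesicles and release alongside a fast transmitter, and they act on G protein-coupled receptors of neighboring cells. In the cortex, somatostatin and vasoactive intestinal peptide each name a class of interneuron, while other peptides cross class borders. The 10 genes described here were chosen by symbol. They are the precursors *Sst*, *Cort*, *Npy*, *Vip*, *Cck*, *Tac1*, *Penk*, *Pdyn* and *Crh*, and *Crhbp*, whose product binds the corticotropin-releasing hormone encoded by *Crh*. Each gene name has 1 row in the count table, and the 10 were taken out of 23335 gene names, of which 16531 had any count.

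The data are counts of unique varietal tags (UMI), each marking 1 messenger RNA molecule, in single cortical interneurons picked by hand for red fluorescence. Chandelier cells (ChC), whose boutons line the axon initial segments of pyramidal cells, came from *Nkx2.1*-CreER; Ai14 females, whose Cre is driven from the *Nkx2.1* gene and was induced at E17.5 by 150 µl of tamoxifen at 20 mg/ml. Pv cells, the fast-spiking basket cells that contact pyramidal cell bodies, came from *Pv*-ires-Cre; Ai14 females, whose Cre is driven from the parvalbumin gene, and their labels repeat the same induction text. Ai14 is the reporter that turns red after Cre. The title of every sample calls its mice WT, and the labels name no other treatment. Frontal cortex was taken from 4 mice. ChC batches 1 and 2 came from animal 1, at postnatal day 31, and batches 3 and 4 from animal 2, at day 32. Pv batches 5 and 6 came from animal 3, at day 29, and batches 7 and 8 from animal 4, at day 35. Cell type, mouse line and flow cell make the same split and cannot be told apart. Within a cell type, each animal was sequenced on a lane of its own.

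Depth differed between batches and sets what could be seen. Over 126 cells with counts, totals came to 448121, 556405, 2460679 and 1123083 UMI for batches 1 to 4 (ChC) and to 392580, 430860, 316540 and 797177 UMI for batches 5 to 8 (Pv). A gene with no UMI could still be present at up to 6.69, 5.39, 1.22 and 2.67 counts per 1000000 UMI of the batch (CPM) in ChC batches 1 to 4 and at up to 7.64, 6.96, 9.48 and 3.76 in Pv batches 5 to 8, by the limit that 0 counts allow (3 counts of the total). Intervals and limits given here cover counting error only.

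The labeled cell types were checked on genes fixed as markers. *Pvalb*, which encodes the calcium buffer parvalbumin, averaged 1073 ± 449 CPM (SD, n = 4) over Pv batches, against 134 ± 48.1 (SD, n = 4) over ChC batches, and every Pv batch lay above every ChC batch. The other genes of the Pv basket list of 4 were mixed. *Syt2*, a calcium sensor of transmitter release, averaged 35.5 ± 24.99 CPM (SD, n = 4) over Pv batches and 7.58 ± 5.90 (SD, n = 4) over ChC batches, with the lowest Pv batch at 12.64 and the highest ChC batch at 12.58. The potassium channel genes *Kcnc1* and *Kcnc2* overlapped between the cell types, at 489 ± 269.5 (SD, n = 4) and 723 ± 472 (SD, n = 4) over Pv batches, against 553 ± 236 (SD, n = 4) and 291 ± 170.3 (SD, n = 4) over ChC batches. *Slc32a1*, the vesicular GABA transporter, had UMI in all 126 cells, *Gad1* in 125 and *Gad2* in 117. The transcription factors of the medial ganglionic eminence, the origin of both cell types, were all detected, with *Lhx6* in 102 cells and *Sox6* in 115. Beside these, *Nkx2-1* had UMI in 96 cells and *Satb1* in 81.

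Somatostatin, the peptide of the largest dendrite-targeting interneuron class, was all but missing. *Sst* had 1 UMI among 6525445, in a single Pv cell of batch 7 that held 18381 UMI in all. Over the 126 cells this is 0.153 CPM (95% exact Poisson interval 0.00388 to 0.854). *Penk*, the precursor of the enkephalins, also had 1 UMI, in another cell of batch 7 with 19695 UMI. *Vip*, *Crh* and *Pdyn*, the precursor of the dynorphins, had no UMI in any cell, which allows up to 0.460 CPM over all cells, and cells with a UMI at up to 2.38%. In ChC cells alone the limit is 0.654 CPM, and in Pv cells alone 1.55. Deep batches weigh most in these pooled limits, which would be higher without them. Batch 3 held 2460679 of the 4588288 ChC UMI, and batch 8 held 797177 of the 1937157 Pv UMI. Of the 10 genes, 5 thus had no more than 1 UMI in the series. Any UMI was found for 7 of the 10, and for 16531 of all 23335 gene names.

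Because the library method counts poly(A)-primed transcripts near their 3′ ends, the ends of the 10 rows were read from the mm9 genome. The last 30 bases are shown for genes with and without counts, 5′ to 3′ on the sense strand, with the poly(A) signal (AATAAA, or ATTAAA where the first is missing) in capitals. Of 27048 rows of the table with a complete window, 47.4% hold AATAAA and 58.7% hold either hexamer. Of the 10 genes, 9 hold one, and *Pdyn* holds neither in these bases.
Tac1, chr6:7512944-7512973, plus strand, 1886 UMI: ctaccattttaAATAAAagaatgtatcttc
Npy, chr6:49779475-49779504, plus strand, 956 UMI: gtgtgtttaAATAAAgtaccatgcattcaa
Cck, chr9:121398942-121398971, minus strand, 1540 UMI: gctATTAAAgagatttccttctgcccctca
Sst, chr16:23889667-23889696, minus strand, 1 UMI: aatacaaAATAAAattatggtgagattatg
Vip, chr10:4698927-4698956, minus strand, 0 UMI: acaggAATAAAgatctttggttatcattgc
Crh, chr3:19593401-19593430, minus strand, 0 UMI: aatatatttttAATAAAatctgcaaaggtt
Pdyn, chr2:129513737-129513766, minus strand, 0 UMI: aatacctattctgaagatttagatgtttga

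The rows of *Sst*, *Vip* and *Crh* thus hold a hexamer near the end, as those of *Tac1*, *Npy* and *Cck* do. A match of these letters is a description only. The rows of *Sst*, *Vip*, *Crh* and *Tac1* end at the base where the GENCODE vM1 gene ends. The *Pdyn* row, from 129513737 to 129515604 on chromosome 2, stops 1436 bases short of that end, so transcripts that run to the annotated end may lie outside the counted row, and its 0 was not tested apart from this. The *Cort* row stops 157 bases short, and those of *Crhbp* and *Penk* 5 bases each. No other row of the table overlaps any of the 10.

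*Tac1*, the precursor of substance P and neurokinin A (chromosome 6, 7505071 to 7512973, plus strand), had 1886 UMI in 70 of 126 cells. In ChC batches 1 to 4 it stood at 13.4, 2114, 0 and 4.45 CPM, and in Pv batches 5 to 8 at 219, 0, 319 and 642. A single ChC batch carried 99.1% of the ChC counts, and the lone Pv batch without a UMI came from the same mouse as a batch with 86. In batch 2 all 16 cells had *Tac1*, with 3 to 208 UMI, while in batch 1, from the same mouse, 3 of 16 cells had any. The ratio of batch 2 to batch 1 was 158 (95% exact interval 72.3 to 431), where the median gene with at least 100 UMI over both batches differed 2.69-fold. Of the 6 *Tac1* UMI in batch 1, 4 lay in a single cell that held 0.933% of the UMI of its batch.

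*Npy*, neuropeptide Y (chromosome 6, 49772728 to 49779504, plus strand), had 956 UMI in 43 cells. Its level was 0, 79.1, 0.813 and 415 CPM in ChC batches 1 to 4, and 0, 0, 0 and 557 in Pv batches 5 to 8. The cell types overlap, and each cell type has 1 batch that carries most of its counts, 91.0% in ChC and 100% in Pv. In batch 4 all 15 cells and in batch 8 all 16 cells had *Npy*, with at least 2 and 3 UMI each. The other batches of the same mice had 2 UMI in batch 3 and none in batch 7. With 3 UMI taken for the count of 0, batch 8 stood 58.8-fold above batch 7. The 95% exact interval of the ratio, which also covers counting error in batch 8, starts at 47.6. Batch 4 stood 511-fold above batch 3 (95% exact interval 141 to 4228), and 340.3-fold with counts below 3 UMI taken as 3. On that scale the median gene differed 1.98-fold between batches 7 and 8 and 2.27-fold between batches 3 and 4.

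*Cck*, cholecystokinin (chromosome 9, 121398942 to 121404807, minus strand), was the sole peptide gene of the 10 found in all 8 batches, with 1540 UMI in 104 cells. Its ChC batches stood at 24.5, 35.9, 299.9 and 345 CPM and its Pv batches at 76.4, 357, 269 and 143. Both batches of animal 1 were low and both of animal 2 were high, with a ratio of 1.15 between the latter (95% exact interval 1.02 to 1.30). Between Pv batches 6 and 5, from 1 mouse, it was 4.68 (95% exact interval 3.15 to 7.17), where the median gene differed 2.78-fold. Between Pv batches 7 and 8, from the other mouse, it was 1.88 (95% exact interval 1.40 to 2.51), where the median gene differed 1.98-fold. The ranges of ChC and Pv batches overlap almost entirely.

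*Cort*, cortistatin, a peptide that shares receptors with somatostatin (chromosome 4, 148499300 to 148500850, minus strand), had 85 UMI in 33 cells. ChC batches 1 to 4 stood at 0, 52.1, 0 and 18.7 CPM and Pv batches 5 to 8 at 7.64, 0, 31.6 and 27.6. *Crhbp* (chromosome 13, 96201331 to 96214786, minus strand) had 107 UMI in 43 cells, at 2.23, 39.5, 0 and 47.2 in the ChC batches and 40.8, 0, 44.2 and 1.25 in the Pv batches. Both genes were at 0 in ChC batch 3, the deepest, and in Pv batch 6. The binding protein was therefore counted in both cell types, without a UMI of its ligand gene *Crh* in any cell.

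**Figure D1:**
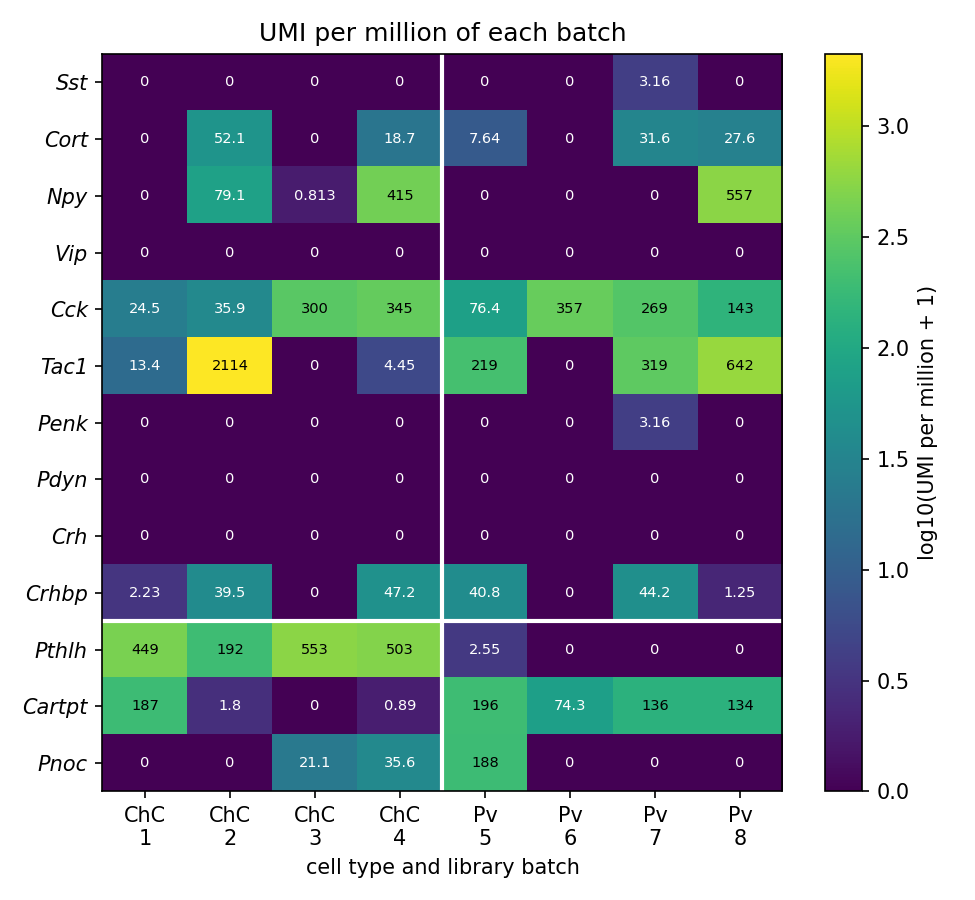
Levels of the 10 peptide genes and of 3 further precursors (rows) in the 8 library batches (columns), in CPM of the batch, with color on a log10(CPM + 1) scale. *Tac1* reaches 2114 in ChC batch 2 and *Npy* 557 in Pv batch 8, while *Vip*, *Pdyn* and *Crh* are 0 throughout and *Pthlh* is high in all 4 ChC batches.

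Among the 5 genes with more than 1 UMI, the SD exceeded the mean over ChC batches for *Tac1*, *Npy*, *Cort* and *Crhbp*, and over Pv batches for *Npy* and *Crhbp*. The ChC batches averaged 533 ± 1054 CPM (SD, n = 4) of *Tac1*, and the Pv batches 295 ± 267 (SD, n = 4). For *Npy* the averages were 124 ± 198 (SD, n = 4) and 139 ± 278 (SD, n = 4). Without batch 2 the ChC mean of *Tac1* was 5.95, without batch 4 the ChC mean of *Npy* was 26.6, and without batch 8 the Pv mean of *Npy* was 0. *Cck* averaged 176 ± 169.9 (SD, n = 4) over ChC batches, against 211 ± 126 (SD, n = 4) over Pv batches. *Cort* averaged 17.7 ± 24.6 (SD, n = 4) and 16.7 ± 15.3 (SD, n = 4), and *Crhbp* 22.2 ± 24.6 (SD, n = 4) and 21.6 ± 24.2 (SD, n = 4). With single batches left out, the ChC and Pv means ranged from 5.95 to 710.5 and from 179 to 393 for *Tac1*, from 26.6 to 165 and from 0 to 186 for *Npy*, from 120.1 to 227 and from 163 to 256 for *Cck*, from 6.23 to 23.6 and from 11.7 to 22.3 for *Cort*, and from 13.9 to 29.7 and from 14.003 to 28.7 for *Crhbp*. The means of the cell types over all batches differed by less than their SD for each of these 5 genes. For none of the 10 genes did all batches of one cell type lie above all batches of the other, where 4.26% of the 9681 genes tested did so, 2.21% with ChC above and 2.05% with Pv above.

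ChC and Pv cells were then compared on UMI summed per animal, 2 mice against 2. Of the 10 genes, 5 passed the filter on low counts and 0 were called by edgeR's quasi-likelihood test, where 0% of the 9681 genes were called at an adjusted p below 0.05 and 6.38% had an unadjusted p below it (618 genes). Of the 5 genes, 0 had an unadjusted p below 0.05. With 2 mice a group and a common dispersion of 0.762 between animals, a count of 0 called is no sign of equal levels. DESeq2 called 156 genes, 1.68% of those with an adjusted p, and again 0 of the 10. For *Tac1* the animals stood at 1177 and 1.40 CPM in ChC and 104 and 550.4 in Pv, and the fold change, with ChC in the numerator, was 1.02 on the log2 scale (standard error 1.76, edgeR adjusted p = 0.989). One ChC animal lay above and the other below both Pv animals. For *Npy* they stood at 43.8 and 131 in ChC and at 0 and 399 in Pv, and the log2 fold change was -1.05 (standard error 1.76, edgeR adjusted p = 0.989). Here the Pv animals lay on both sides of the ChC pair. *Cck*, *Cort* and *Crhbp* had log2 fold changes of -0.23, 0.24 and 0.23, each with a standard error above 1.

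These values changed with single mice. Without animal 1, *Tac1* was called lower in ChC, with a log2 fold change of -7.72 (edgeR adjusted p = 0.0319, 15 of 11569 genes called, 0.13%), and this was the only call of any of the 10 genes in the fits that were run, alternatives included. The lone ChC animal of that fit, with 5 *Tac1* UMI, is assumed to vary like the Pv pair. Without animal 2, 3 or 4 the *Tac1* value was 2.03, 0.34 or 2.43, with edgeR adjusted p from 0.323 to 0.9999, and 0 of the 10 genes were called, where 0.546% of 10990, 0.12% of 11713 and 0.865% of 11102 genes were. With limma voom on batches, with the animal as a block, it was -4.65 (adjusted p = 0.585). Without animal 4, the *Npy* value turned from -1.05 to 10.29 (edgeR adjusted p = 0.156). The remaining Pv animal had no *Npy* UMI, so that value depends on the prior count of the fit. The median log2 fold change over all genes was 0.57 in that fit, beside 0.05 with all 4 animals. With batches as samples and without batch 2, *Tac1* stood at -5.56 (edgeR adjusted p = 0.558).

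Within a batch, peptide genes with at least 100 UMI had counts that rose with the total count of the cell. The number of cells with at least 1 UMI was compared with the number that the cell totals alone would give if every cell of a batch had the batch's rate. For *Npy* it was 43 cells against 43.6, for *Tac1* 70 against 71.1 and for *Cck* 104 against 103.5. *Crhbp* was found in 43 cells against 41.3, and *Cort* in 33 against 39.5, the largest gap of the 5. The *Cort* gap lay mainly in batch 8, with 6 cells against 11.03. The Spearman correlation of *Tac1* UMI with cell total was 0.974 over the 16 cells of batch 2, that of *Cck* was 0.999 over the 16 cells of batch 3, and that of *Npy* was 0.914 over the 15 cells of batch 4. The median over all genes with at least 100 UMI was 0.936, 0.966 and 0.922 in these batches. Over all 9 combinations of gene and batch with that many UMI, the values ran from 0.732 for *Cck* in batch 8, where the median gene had 0.875, to that of *Cck* in batch 3. The cells of a batch share a library and the total includes the gene itself.

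**Figure D2:**
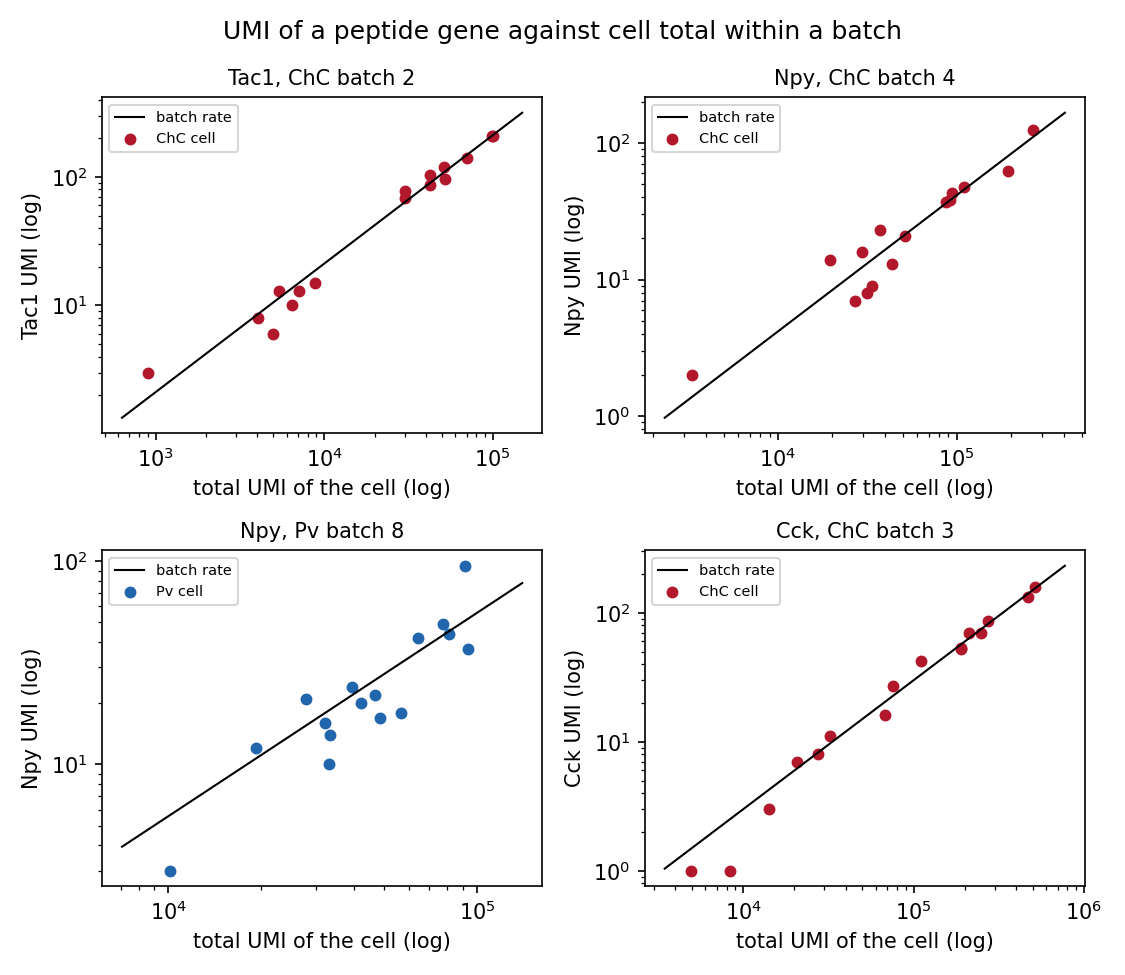
UMI of a peptide gene (vertical axis, log) against total UMI (horizontal axis, log) for every cell of 4 combinations of gene and batch, with red points for ChC cells, blue points for Pv cells and a line at the rate of the whole batch. The points lie along the line over the full range of depth, and 1 Pv cell with 95 *Npy* UMI in batch 8 lies above it.

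Shares of cells with a UMI were therefore also read at equal depth. *Cck* was found in 73.0% of ChC cells and 92.1% of Pv cells, and after thinning each cell to 10000 UMI in 66.0% of 48 ChC and 80.3% of 55 Pv cells, with 15 ChC and 8 Pv cells too shallow. Its pooled level, in which deep batches weigh most, was 252 CPM in ChC and 198 in Pv cells, while the mean over batches was 176 and 211. *Tac1* was found in 36.5% of ChC and 74.6% of Pv cells, and in 22.3% and 75.1% after thinning. Its pooled level was 259 CPM in ChC and 361 in Pv cells, while the mean over batches was 533 and 295. *Npy* was found in 42.9% of ChC and 25.4% of Pv cells, and in 39.6% and 28.9% after thinning, while its pooled level was 112 and 229 and its mean over batches 124 and 139. No order of the cell types was read from the shares.

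The spread between cells of a batch was measured as the squared coefficient of variation beyond Poisson counting at the cell totals, which is 0 when cells differ in depth alone. It could be computed for 9 combinations of a peptide gene and a batch with at least 100 UMI, and its median was 0.00768. For *Tac1* it was -0.00223 in batch 2, above 51.05% of the 1383 genes measured there, while it was -0.00239 in batch 7, above 32.3% of 585 genes, and 0.00768 in batch 8, above 65.5% of 1996. For *Cck* it ran from -0.0179 in batch 6, above 23.2% of 1202 genes, to 0.0328 in batch 8, above 85.3% of 1996. The median over all such genes lay between -0.00276 and 0.0185 in the 8 batches, a range close to the 0 of Poisson counting. *Npy* in batch 8 stood apart, at 0.146, above 99.2% of 1996 genes. Without the cell with the most *Npy* in CPM it was 0.0243.

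**Figure D3:**
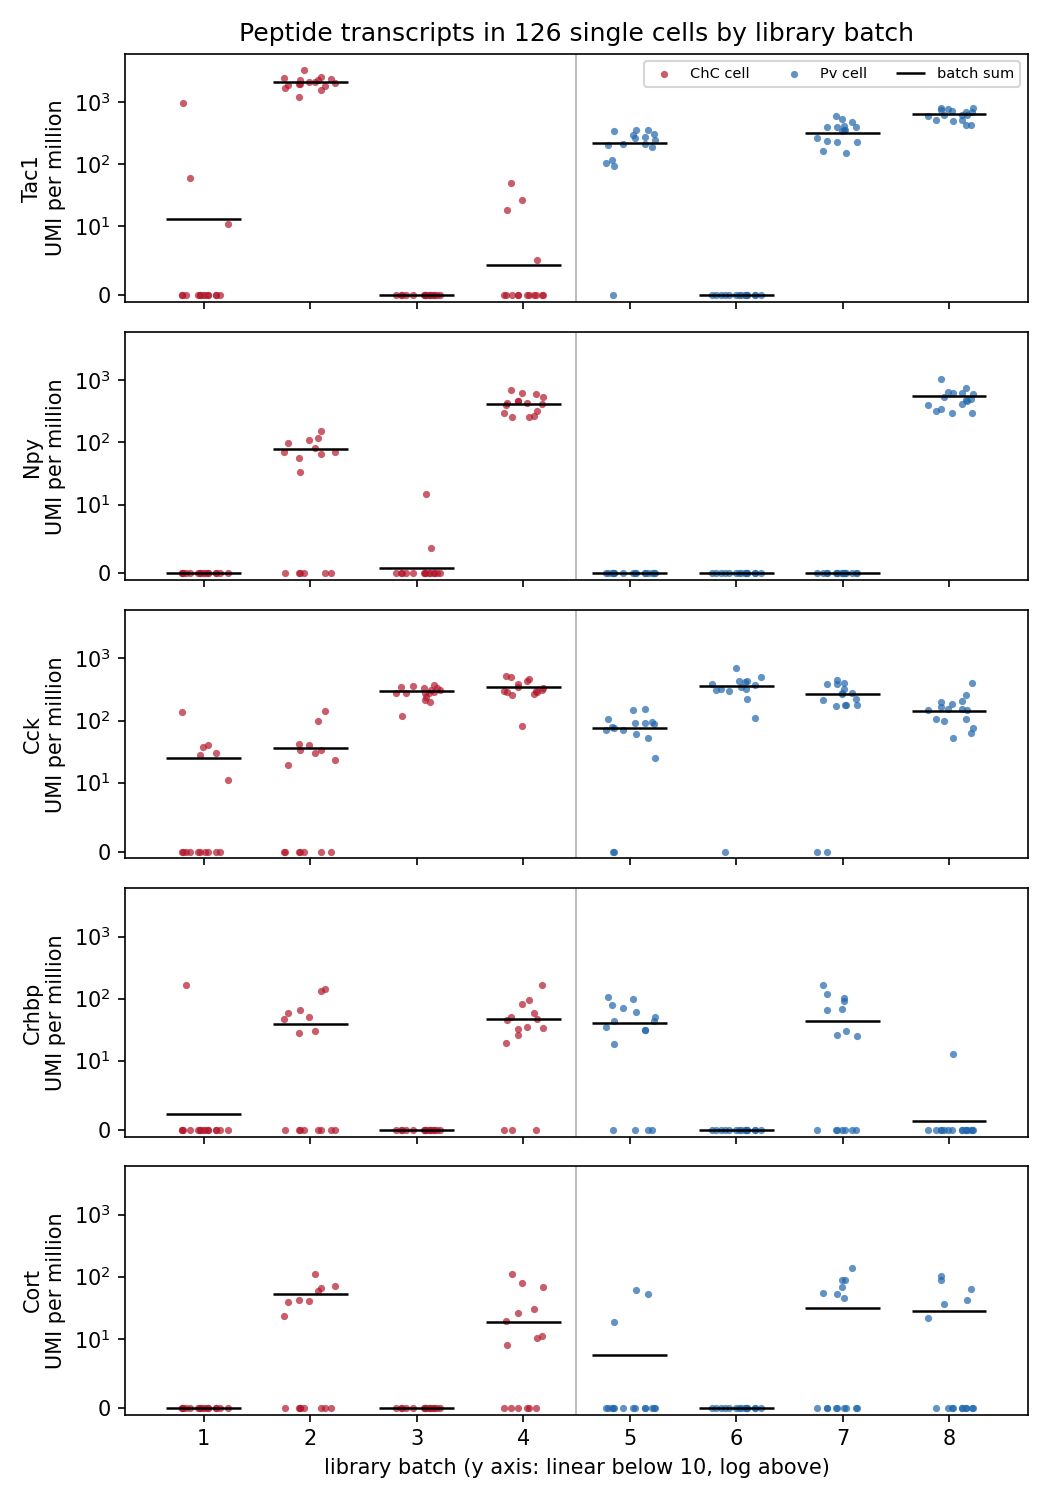
Each point is 1 of 126 cells, at its library batch (horizontal axis) and its counts per 1000000 UMI of the cell (vertical axis, linear below 10 and log above), in red for ChC and blue for Pv cells, with black lines at the level of the batch sum. Where a gene has many UMI, cells of a batch cluster at the level of their batch, as for *Tac1* at 2114 in batch 2 and *Npy* at 557 in batch 8. With few UMI they scatter, as for *Crhbp* in batch 4, from 0 to 163 around 47.2, and *Cort* in batch 8, from 0 to 103 around 27.6.

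Cells of extreme expression were defined by at least 10 UMI of a gene and a share of the cell's total at least 10 times that of all other cells of its type. There were 4 such pairs of a cell and a gene, all in ChC. With ChC batch 1, 2, 3 or 4 left out there were 2, 1, 0 or 2. The share of all genes with such a cell was not counted. A cell of batch 2 had 103 *Tac1* UMI among 42561, 10.1 times the other ChC cells, and another of that batch had 78 among 30252, 10.6 times. The others were a batch 2 cell with 11 *Cort* UMI among 99731 (12.7 times) and a batch 4 cell with 15 *Crhbp* UMI among 92044 (12.0 times). At 5 times in place of 10 there were 19 pairs, of which 13 were *Tac1* in cells of batch 2, 3 were *Npy* in batch 4 and 1 was *Npy* in batch 8.

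Against the other cells of their own batch, a reference added after the data were seen, 0 pairs with at least 10 UMI reached 10 times or 5 times. Among cells with at least 10 UMI, the highest *Tac1* cell of batch 2 stood 1.24 times above the rest of its batch, and the *Cort* cell 2.80 times. The largest ratio with that minimum was that of the *Crhbp* cell of batch 4, at 163 CPM against 36.9 in the rest, 4.42 times, and the sole pair past 3 times. Cells with fewer UMI can stand higher in CPM, such as the batch 1 cell with 4 of the 6 *Tac1* UMI of its batch, at 957 CPM, and a batch 2 cell with 3 *Tac1* UMI among 903, at 3322 CPM. The Pv cell with 95 *Npy* UMI stood at 1037 CPM, 2.10 times the rest of batch 8, and the same cell had the most *Cck*, *Tac1* and *Cort* UMI of its batch with 11.5% of the batch total.

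Several of the genes were often counted in the same cell. Of 126 cells, 117 had a UMI of at least 1 of the 10 genes, 42 had exactly 1 gene, 12 had 2, 32 had 3, 22 had 4 and 9 had 5. The number followed the batch, whose cells share a library. Expression of several peptides by the same neuron was not tested apart from this. In batch 6 no cell had more than 1 of the genes, and in batch 8 every cell had 3 or 4. Within batches, the Spearman correlation of 2 peptide genes in UMI ran from 0.0162 for *Tac1* and *Crhbp* in batch 7 to 0.928 for *Cort* and *Npy* in batch 2, each over 16 cells, and in CPM from -0.498 for *Cort* and *Cck* over the 15 cells of batch 4 to 0.594 for *Cort* and *Npy* in batch 2. For *Npy* and *Tac1* in batch 2 it was 0.917 in UMI over 16 cells. In CPM that value was 0.0453. In batch 8 it was 0.846 in UMI and -0.0676 in CPM, again over 16 cells.

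The genes most like each peptide gene across cells were sought by the mean over batches of the within-batch Spearman correlation in CPM. *Cck* was closest to *Gramd1b* (0.385 over 8 batches), *1190005F20Rik* (0.374 over 7 batches) and *Lphn1* (0.374 over 8 batches), the highest of 8566 genes. *Tac1* was closest to *Sec61b* (0.375), *Npepps* (0.345) and *Bsn* (0.345), and *Crhbp* to *Tor1aip2* (0.466), *Hdc* (0.456) and *Sult2a2* (0.440), each over 6 batches and the highest of 6379 genes. In sparse counts of cells that share a library and its depth, values of this size are a description of the top of a long list. *Npy* and *Cort* were found in too few batches for the measure.

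By a measure in which deep batches weigh most, differences between batches were larger for *Tac1*, *Npy* and *Crhbp*, and smaller for *Cck*, than for most other genes. The same measure of spread taken over the 8 batches, added after the data were seen, had a median of 0.386 over 8732 genes with at least 100 UMI. It was 2.35 for *Tac1*, above 96.9% of them, 1.78 for *Npy*, above 93.6%, and 1.37 for *Crhbp*, above 89.0%. For *Cck* it was 0.145, above 18.8%. A batch with no UMI where the overall rate would give at least 10 was found for 33.3% of genes, and for *Npy* in 4 batches, *Tac1* in 2, *Crhbp* in 1 and *Cck* in 0.

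Other peptide precursors were examined from a list of 20. Of these, 6 had any UMI, 3 passed the filter and 0 were called in the edgeR test over animals, with 1 log2 fold change above 0 and 2 below and a median of -1.57, beside 0.05 over all genes tested. Of the 9681 genes tested, 4997 had a log2 fold change above 0 and 4684 below. *Pthlh*, which encodes parathyroid hormone-related protein, stood at 449, 192, 553 and 503 CPM in ChC batches and at 2.55, 0, 0 and 0 in Pv batches. It had 2233 UMI in ChC and 1 in Pv cells, and every ChC batch lay above every Pv batch. Its log2 fold change was 9.45 (standard error 1.31, edgeR adjusted p = 0.114), and it was called by DESeq2, with no filter on low counts, with batches as samples and without each of the 4 animals. *Cartpt*, the precursor of the CART peptides, stood at 187, 1.80, 0 and 0.890 in ChC and at 196, 74.3, 136 and 134 in Pv batches. *Pnoc*, the precursor of nociceptin, stood at 0, 0, 21.1 and 35.6 in ChC and at 188, 0, 0 and 0 in Pv batches.

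Of 18 genes for cutting precursors and filling dense-core vesicles, each batch had UMI of 17 or 18, with the convertase gene *Pcsk1*, named after its values were seen, at 0 in batches 1, 5 and 7. All 18 of the list had UMI in the series, 17 passed the filter and 0 were called, with 12 log2 fold changes above 0, 5 below and a median of 0.18. Over all genes tested, 4997 of 9681 lay above 0, with a median of 0.05. Of the 17, 2 had an unadjusted p below 0.05, *Furin* and *Cadps*, where 6.38% of all genes tested had. The batches of *Furin* overlap. For 2 of the 17, *Cadps* and *Ptprn*, every ChC batch lay above every Pv batch, where 2.21% of all genes tested did so, and for 0 the reverse. These 3 genes were named after their values were seen. *Pam*, the enzyme that amidates peptide ends, averaged 1001 ± 439.8 CPM (SD, n = 4) over ChC batches, against 629 ± 366 (SD, n = 4) over Pv batches. *Scg5*, the chaperone of a convertase, averaged 569 ± 160.1 (SD, n = 4) and 603 ± 356 (SD, n = 4), and *Cpe*, carboxypeptidase E, 489 ± 177 (SD, n = 4) and 608 ± 199 (SD, n = 4). Summed, the list held 6945, 4889, 4634 and 4331 CPM in ChC batches and 3444, 4895, 3368 and 3941 in Pv batches. Batch 1 was the highest of the 8, with *Furin* at 1216 CPM there and at 2.32 to 196 in the others. In batch 1 all 10 peptide genes together held 40.2 CPM. The list of 20 other precursors held 636 there, also the highest of the 8. Batch 2, where the 10 peptide genes held 2320, lay within the range of the rest.

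Of 20 peptide receptors, 12 had UMI, 7 passed the filter and 0 were called, with 5 log2 fold changes above 0, 2 below and a median of 1.60. Over all genes tested, 4997 of 9681 lay above 0, with a median of 0.05. Of the 7, 3 had an unadjusted p below 0.05, *Tacr1*, *Oprm1* and *Vipr2*, where 6.38% of all genes tested had. *Vipr2*, a receptor of the *Vip* product, had 5, 23, 122 and 0 UMI in ChC batches and none in Pv batches, so ChC batch 4 was at 0 like every Pv batch. *Tacr1*, the receptor of the *Tac1* product substance P, had 50, 5, 323 and 487 UMI in ChC batches and 0, 1, 0 and 1 in Pv batches, with every ChC batch above every Pv batch in CPM. Its log2 fold change was 6.99 (standard error 1.57, edgeR adjusted p = 0.582), and it was called by DESeq2 and with no filter. *Adcyap1r1*, the receptor of the peptide PACAP, averaged 54.1 ± 21.8 CPM (SD, n = 4) over ChC batches, against 72.1 ± 48.3 (SD, n = 4) over Pv batches. *Oprd1*, the delta opioid receptor, had 9, 37, 301 and 5 UMI in ChC batches and 2, 0, 34 and 93 in Pv batches. *Oprm1*, the mu opioid receptor, had 1, 125, 53 and 171 UMI in ChC batches and 1, 3, 1 and 1 in Pv batches and was called by DESeq2. In CPM its batches overlap, with ChC batch 1 at 2.23 and the Pv batches from 1.25 to 6.96. It and *Vipr2* were named after their values were seen, as was *Cckbr*, a cholecystokinin receptor with 43 of its 44 UMI in batch 8. Of the 5 somatostatin receptors, only *Sstr2* had UMI, 3 in all.

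Marker genes of other cells were read beside the peptide levels. Of 7 pyramidal neuron markers 5 had UMI, summed to 58.02, 568, 65.4 and 849 CPM in ChC batches and 560.4, 585, 2401 and 299.8 in Pv batches, led in every batch by *Camk2a* or *Nrgn*, with *Neurod6* and *Tbr1* at 0. The vesicular glutamate transporter *Slc17a7* had 0, 27, 0 and 97 UMI in ChC and 3, 0, 110 and 21 in Pv batches. Of 5 genes of the Sst class other than its peptides, 4 had UMI, led by *Elfn1* or *Calb1* and summed to 80.3, 518, 65.8 and 391 in ChC and 48.4, 44.1, 186 and 262 in Pv batches, with *Chodl* at 0. The part of such cells in the peptide counts was not tested.

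Of the 8 caudal-eminence markers 6 were in the table and 5 had UMI, led by *Adarb2* in 7 batches and *Cnr1* in batch 6. They summed to 22.3, 26.96, 55.7 and 1687 CPM in ChC and 20.4, 167, 152 and 15.1 in Pv batches, with *Nr2f2* at 0, *Prox1* and *Calb2* at 2 UMI each and *Htr3a* at 3. The level of 1687 in batch 4 was all *Adarb2*. Astrocyte markers (4 of 5 with UMI, led by *Slc1a2* or *Slc1a3*, with *Gfap* at 0) summed to 37.9, 316, 235 and 706 in ChC and 25.5, 11.6, 834 and 174 in Pv batches. The part of these cells in the peptide counts was not tested.

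Microglial markers (4 of 5 with UMI, with *C1qa* at 0) summed to 0, 1.80, 0 and 59.7 CPM in ChC, led by *Aif1* in batch 4, and to 0, 0, 15.8 and 0 in Pv batches. Vascular markers (3 of 4 with UMI, led by *Flt1*, *Pecam1* or *Rgs5*, with *Cldn5* at 0) summed to 13.4, 17.97, 6.502 and 16.9 in ChC and 5.09, 16.2, 41.1 and 134 in Pv batches. Striatal projection neuron markers, which would mark tissue below the cortex, summed to 0, 1.80, 13.4 and 0.890 in ChC and 28.02, 0, 60.02 and 74.0 in Pv batches. Of 7 such genes 6 were in the table and 4 had UMI, led by *Drd1a* in batches 3 and 8, with *Ppp1r1b* and *Adora2a* at 0. Their part in the peptide counts was not tested either.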

How the data were processed

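Messenger RNA was amplified from single cells by linear amplification with varietal tags. The authors aligned reads to mm9 with Bowtie 0.12.7, counted each tag of a gene once and deposited raw counts, without normalization, for 27207 transcripts in 128 cell columns. The 2 cells without counts were left out, and every column was assigned to a sample by its name. For each gene name the transcript with the most UMI was kept, and the rows of a member were summed. Levels are counts per 1000000 UMI of the batch sum (CPM).

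Animal sums were compared with edgeR 4.0.16 in R 4.3.3 (quasi-likelihood test, TMM, filterByExpr) with Benjamini-Hochberg adjustment over all genes tested and a threshold of 0.05. DESeq2 1.42.0 served as an alternative, as did limma 3.58.1 (voom), no filter on low counts, DESeq2 size factors, batches as samples, all transcripts summed, thinned cells, and animals, batches, shallow or extreme cells left out. Python 3.11.15 (pandas 2.3.3, scipy 1.17.1, numpy 2.4.6) gave the other values, drawn with matplotlib 3.10.9. The common dispersion between animals was 0.762. The edgeR and dispersion steps were tested on simulated data. There the test of 2 animals against 2 called changed genes at a low dispersion but none at a dispersion somewhat above that of these data, so a lack of calls says little. The dispersion measure understated large spreads, so ranks among genes are given beside its values over all cells of a batch. No doublet caller was run on these cells, which were collected one by one.

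The 10 genes, gene lists and markers were chosen with earlier results of these data known. One list of markers is not reported here. Named genes are the 10, called pathway genes or otherwise the 3 of each list with the highest mean level, and the 3 of most alike pattern for each of the 10 with UMI in at least 32 cells and values in 6 batches. Replicates are batches, and a pair of batches shares an animal. Spread between the 8 batches, ratios between batches of an animal, ends of rows and comparisons with cells of the same batch were added after the data were seen.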

Additional observations from a re-analysis of the deposited data

Results flagged for a closer look

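The groups of 4 batches examined numbered 66. They were taken over the 10 genes, the pathway genes of highest mean level in each list and the summed lists. In 15, the distance of a batch from its nearest other, as a share of the group's range, exceeded the 95% critical value of Dixon's ratio. Chance gives about 1 in 20 such groups, and a gene counted in a single batch always meets the rule. Other pathway genes named in the text, among them *Furin*, *Pcsk1* and *Cckbr*, were not examined by this rule.

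Among peptide genes, *Tac1* in ChC batch 2 stood at 2114 CPM, with the other ChC batches between 0 and 13.4, and *Npy* in Pv batch 8 at 557, with the others at 0. *Sst* and *Penk* stood at 3.16 each in Pv batch 7, which is 1 UMI. *Pthlh* stood at 2.55 in Pv batch 5, also 1 UMI. *Cartpt* was at 187 in ChC batch 1, with the others up to 1.80, and *Pnoc* at 188 in Pv batch 5, with the others at 0. Summed precursors of the second list reached 395 in batch 5.

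*Pam* was at 1177 in Pv batch 6 and *Scg5* at 808 in ChC batch 1. Of the marker lists, the caudal-eminence markers reached 1687 and the microglial markers 59.7 in ChC batch 4, the pyramidal markers 2401 and the microglial markers 15.8 in Pv batch 7, and the striatal markers 13.4 in ChC batch 3. Batch 7 holds both cells with the lone *Sst* and *Penk* UMI. The cause of these differences was not tested.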

How the results depend on the processing

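The number of genes of the 10 called between ChC and Pv was 0 in each alternative other than leaving out animal 1 (range 0 to 1 with animals or batches left out). Over all genes, DESeq2 called 156, no filter 84, batches as samples 6 with edgeR and 6 with limma voom and the animal as a block, thinning 1, and leaving out animals or batches 4 to 96. Pathway genes called were 3 of 27 tested with DESeq2, beside 156 of 9305 genes (1.68%), and 2 of 36 with no filter, beside 84 of 16531. With batches as samples, 1 of 22 was called by edgeR and 1 of 22 by limma voom, beside 6 of 6283 genes each. With single batches left out 1 was called each time, of 21 to 25 tested, beside 4 to 6 of 6674 to 7619 genes. *Pthlh* was among them each time. The cause of these differences was not tested.

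Directions of the fold changes were not stable. The log2 fold change of *Tac1* was -4.65 and that of *Crhbp* -1.21 with limma voom. Without extreme cells, those of *Cort* and *Crhbp* were -0.31 and -0.21. With animals or batches left out, *Tac1* ranged from -7.72 to 2.43, *Npy* from -2.02 to 10.29, *Cck* from -2.62 to 0.62, *Cort* from -1.37 to 2.14 and *Crhbp* from -0.52 to 0.85.

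Extreme pairs numbered 19 at 5 times, 0 at 20 times, 2 with at least 30 UMI, 1 against both cell types, 7 without shallow cells and 0 to 4 without single batches. Against the same batch, a choice made after seeing the data, they numbered 0 at 10 times, 0 at 5 times and 1 at 3 times. Cells with any of the 10 genes were 92.9%, but 85.7% with at least 2 UMI, 76.2% with at least 5, 82.1% after thinning to 5000 UMI, and 91.8% to 98.2% without single batches. The median spread between cells lay between -0.00231 and 0.0107 under the alternatives run, and the count of the 10 genes without overlap of batches was 0 in each. Of the recomputed fold changes, 24 changed sign. No paired analysis was possible because the groups share no replicate numbers. Depth limits the genes at 0 or 1 UMI, and 2 animals a group limit every comparison.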
